A study of Rattus norvegicus with 35 samples.

Results

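The 9 liver small RNA libraries of rats given ketoconazole at the middle dose, 30 mg/kg per day, were compared with each other by treatment day. They are 9 of the 35 libraries of the series and were chosen by their labelled dose, with 3 libraries each after 3, 7 and 14 days of dosing. Male Sprague-Dawley rats aged 6 weeks received the drug orally, and each liver was collected 24 h after the final dose. Values are set beside those of 8 libraries from rats given the vehicle, 0.5% methylcellulose (3, 3 and 2 on days 3, 7 and 14), and 9 from rats given 100 mg/kg per day (3 a day group), with sums from the 9 libraries of the 10 mg/kg dose where stated. The labels do not say that replicates of a group came from separate rats, so p-values measure the spread between these libraries only. A later day group had also been dosed longer and was older at collection: within the middle dose, time on ketoconazole, age and any difference between collection days cannot be told apart.

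Ketoconazole is an azole antifungal that inhibits fungal sterol synthesis and also mammalian cytochrome P450 enzymes, and the liver is a known site of its toxicity. miRNAs are short RNAs, cut as a 5p and a 3p arm from a hairpin, that repress messenger RNAs matching their seed (bases 2 to 8 from the 5′ end). Several sets recur in the results below. The Dlk1-Dio3 locus is an imprinted region that encodes a large group of miRNAs transcribed from the maternal allele, abundant in the embryo and placenta and low in adult liver. The miR-200 family marks epithelial cells, in liver those of the bile ducts, while miR-122, miR-192 and miR-22 are abundant in hepatocytes.

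The mature sequences below are those of the miRNAs whose level differed between day 3 and day 14, shown because the seed decides which messenger RNAs each could pair with. They were read from RefSeq (rat assembly GRCr8), 5′ to 3′, with the seed in capitals. miR-136-5p and miR-200b-3p also differed and are named only. The first 6 are from Dlk1-Dio3 miRNAs and no 2 of them share a seed.
miR-411-5p: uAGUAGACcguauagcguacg
miR-434-3p: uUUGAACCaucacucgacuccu
miR-136-3p: cAUCAUCGucucaaaugagucu
miR-409a-5p: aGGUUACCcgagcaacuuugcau
miR-541-5p: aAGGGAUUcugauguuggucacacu
miR-376b-3p: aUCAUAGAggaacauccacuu
miR-200a-5p: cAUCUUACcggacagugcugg
miR-22-3p: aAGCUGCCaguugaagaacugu
miR-192-5p: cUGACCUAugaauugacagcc
miR-29a-3p: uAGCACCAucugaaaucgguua
miR-29c-3p: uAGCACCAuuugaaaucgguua
miR-182: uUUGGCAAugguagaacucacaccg
miR-29a-3p and miR-29c-3p carry the same seed, AGCACCA, which miR-29b-3p shares. The seed of miR-200a-5p is that of miR-200b-5p. No other tested miRNA with a RefSeq sequence carried any of the other 9 seeds.

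The deposited table counts reads for 763 miRNAs. The 9 libraries held 2988801 to 9665416 counts; 2 of the day 14 libraries (replicates 2 and 3) had been run 2 times, and the sums of their runs, 9665416 and 9407702 counts, were the deepest, against at most 3696928 in the single-run middle dose libraries. Of the 763, 552 had a count in the 9 libraries and 211 had none. The 328 miRNAs that passed a filter on low counts held 99.994% of the middle dose counts. Levels are given as CPM, TMM-normalised reads of a miRNA scaled to a common total. miR-122-5p, the defining hepatocyte miRNA, stood at a mean of 28536 ± 7914 CPM on day 3, 28293 ± 2725 on day 7 and 32849 ± 5586 on day 14 (SD, n = 3), while the summed muscle markers stayed at 22.2 to 32.5 CPM and the brain markers at 10.9 to 20.5 CPM in the 9 libraries.

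Neighbouring days gave no call. No miRNA passed an adjusted p of 0.05 in the quasi-likelihood test of edgeR, Benjamini-Hochberg adjusted over the 328, between day 7 and day 3 (0% of those tested) or between day 14 and day 7 (0%). At an unadjusted p of 0.05 the counts were 22 and 33, and DESeq2 called 0 and 1. Between the ends of the course, day 14 against day 3, 14 miRNAs passed (4.27%), of which 9 were lower (2.74%) and 5 higher (1.52%) on day 14. DESeq2 called 21 in this comparison. The median log2 difference of all 328 was 0.04. The libraries of day 3 and day 14 did not overlap for 11 of the 14, and for 47 of all 328. In a fit of the 9 libraries alone, without the other groups, 7 of the 14 were called, all lower, and without replicate 1 of day 3, 8 were called.

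**Figure D1:**
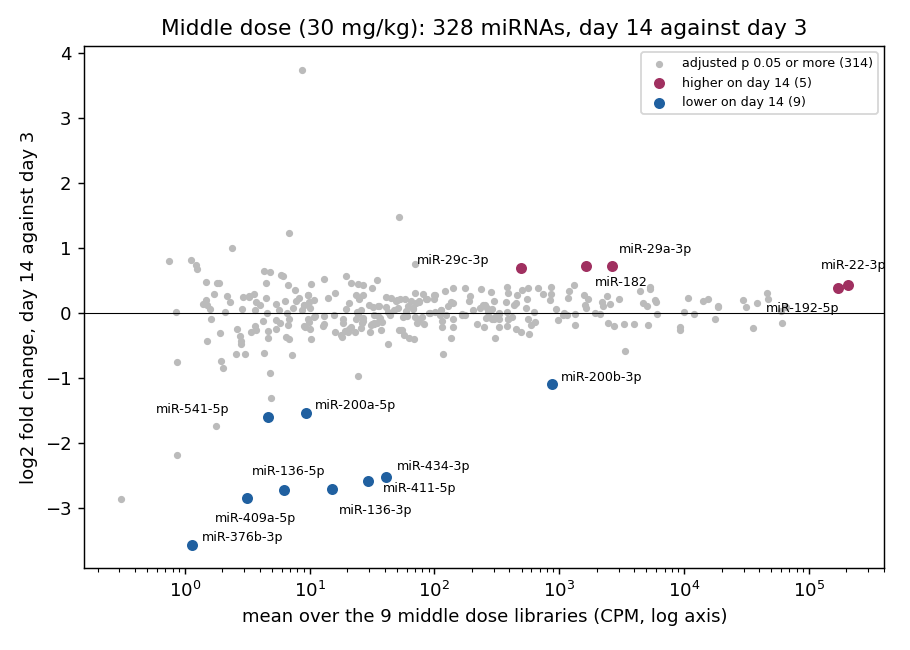
Each point is 1 of 328 miRNAs at the middle dose, with the mean level over the 9 libraries (CPM, log axis) against the log2 fold change from day 3 to day 14. The 9 lower miRNAs (blue) reach a log2 fold change of -3.56, whereas the 5 higher ones (red) lie between 0.38 and 0.72.

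A test across the 3 days together called 10 miRNAs (3.05% of 328; 44 at an unadjusted p of 0.05). By their mean levels 7 of these fell at each step, from day 3 to 7 and from 7 to 14, and 2 rose at each step (miR-192-5p and miR-22-3p). The remaining one, miR-455-3p, had its highest mean on day 7. On the first principal component of the 9 libraries (30.0% of the variance) the day 3 libraries scored -7.69, -4.31 and -0.66, the day 7 libraries -1.28, 0.40 and 1.39, and the day 14 libraries 5.15, 1.06 and 5.96. Day 3 and day 14 thus lay apart on this component, with day 7 between them and overlapping both. The spread within a day was alike for the 238 miRNAs with a middle dose mean of at least 10 CPM. Their median SD was 0.221, 0.204 and 0.231 on the log2 scale on days 3, 7 and 14.

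Of the lists of related miRNAs, that of the Dlk1-Dio3 locus held the most calls. Of 49 listed members in the table, 43 had a count at the middle dose and 10 passed the filter on low counts. Of these 10, 7 fell from day 3 to day 14 and none rose, beside a background of 2.74% lower over all miRNAs. The 10 tested had negative differences, with a median log2 fold change of -2.55 against 0.04 over all tested. This count and median are a description only, since the filter kept a miRNA that reached 2.66 CPM in any 2 of the 35 libraries, and 5 of the 10 were below that level in all 3 day 14 libraries of the middle dose. miR-300-3p passed the filter only with the help of its day 3 libraries at this dose, whereas miR-434-3p, miR-411-5p, miR-136-3p and miR-127-3p were above the level in all 35 libraries. The median was -1.21 from day 3 to day 7 and -1.20 from day 7 to day 14, steps in which no single member passed. The remaining 39 members were too low to test.

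miR-434-3p was the most abundant of those that fell. It read 81.1, 122 and 36.2 CPM in the 3 day 3 libraries, 21.8, 42.2 and 23.7 on day 7, and 15.1, 17.6 and 9.22 on day 14. The lowest day 3 library lay below the highest day 7 library, and all day 14 libraries lay below every other one. Its log2 fold change from day 3 to day 14 was -2.52 ± 0.51 (SE; adjusted p = 0.00204, edgeR). miR-411-5p had 57.0, 82.4 and 29.4 CPM on day 3, 21.5, 28.5 and 19.95 on day 7, and 8.84, 12.9 and 6.39 on day 14. Its 3 day groups did not overlap at all, and the difference over the course was -2.58 ± 0.48 (adjusted p = 0.00204, edgeR).

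Both arms of miR-136 fell. The 3p arm stood at 25.2, 43.2 and 11.8 CPM on day 3, at 7.89, 18.4 and 15.9 on day 7 and at 4.59, 4.09 and 3.81 on day 14. Day 3 and day 7 overlapped, while the 3 day 14 libraries were close together and below both; the log2 fold change was -2.71 ± 0.52 (adjusted p = 0.00204, edgeR). The 5p arm stood at 14.9, 16.97 and 5.75 CPM on day 3, 5.44, 5.06 and 2.71 on day 7, and 0.98, 2.85 and 1.48 on day 14. It too was -2.71 ± 0.53 lower at the end (adjusted p = 0.00204, edgeR), and its day 3 and day 14 libraries did not overlap.

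The other 3 that fell were near the lower end of what these libraries can count. miR-409a-5p had 26, 25 and 12 raw counts on day 3, 9, 11 and 6 on day 7, and 1, 13 and 2 on day 14, where 1 of the deeper libraries gave the 13. In CPM this was 7.05, 6.84 and 4.06 against 0.327, 1.61 and 0.246 at the ends, with a log2 fold change of -2.85 ± 0.60 (adjusted p = 0.00217, edgeR). miR-541-5p read 10.0, 8.49 and 5.07 CPM on day 3, 4.62, 3.97 and 2.03 on day 7 and 1.64, 4.09 and 1.72 on day 14. Days 7 and 14 overlapped and days 3 and 14 did not; its difference, -1.59 ± 0.43 (adjusted p = 0.0240, edgeR), missed the threshold in 5 of the 15 alternative analyses run on it, among them those without replicate 1 or 2 of day 3 or replicate 1 or 3 of day 14. miR-376b-3p rested on 10, 18 and 1 counts on day 3 and 0, 2 and 2 on day 14 (-3.56 ± 1.03, adjusted p = 0.0434, edgeR), and its call was lost in 8 of 14 alternatives, including those without replicate 1 or 2 of day 3 or without any 1 of the day 14 libraries.

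The 3 tested members that did not pass were miR-127-3p, miR-300-3p and miR-431. miR-127-3p, the most abundant of these, had 39.9, 26.8 and 41.2 CPM on day 3, 26.1, 22.8 and 11.8 on day 7, and 9.17, 30.1 and 14.1 on day 14. The second day 14 library lay within the day 3 range, and the difference was -0.97 ± 0.45 (adjusted p = 0.327, edgeR). miR-300-3p gave -1.74 ± 0.64 (adjusted p = 0.136, edgeR) and miR-431 -2.18 ± 0.94 (adjusted p = 0.269, edgeR), both from fewer than 20 counts in every library.

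**Figure D2:**
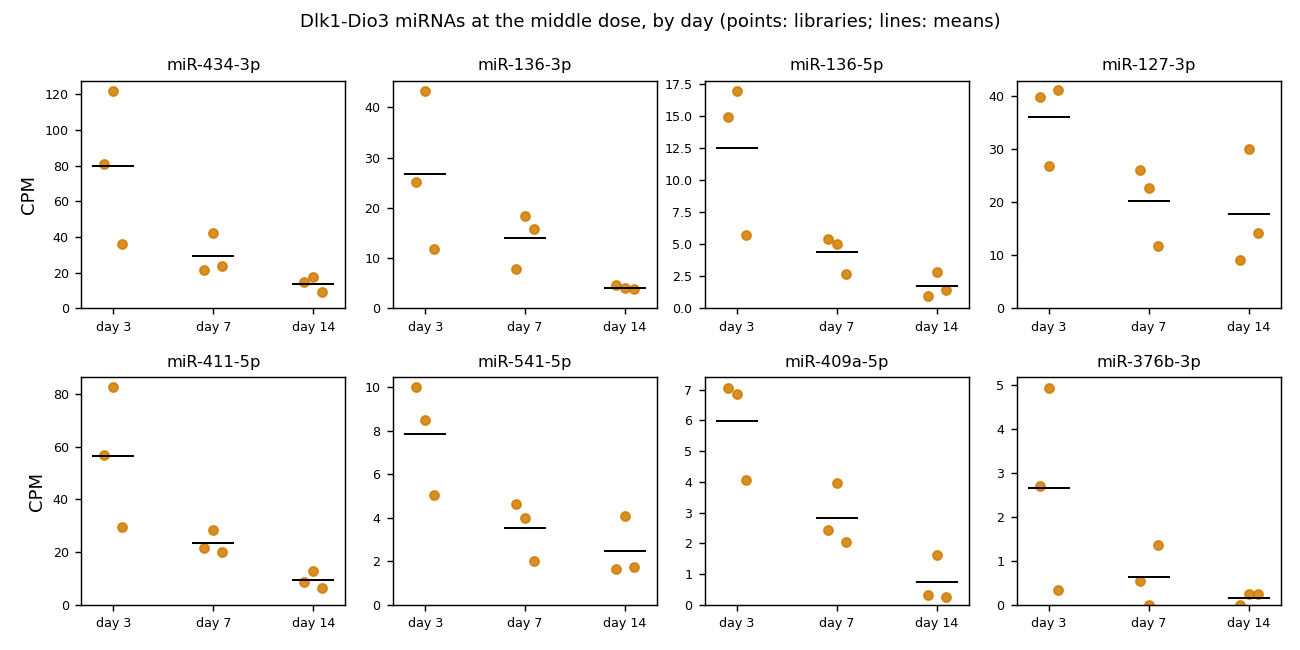
Levels (CPM) of 8 Dlk1-Dio3 miRNAs in the 9 middle dose libraries by day; points are libraries and lines are day means. In 7 of the panels all day 14 points lie below all day 3 points, and in the panel of miR-127-3p they overlap.

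Both sides of the locus were lower at the end. Of the 49 members, 47 had an entry in RefSeq's rat assembly, all on 1 chromosome, and 96 miRNAs of the table lie in the interval that these span. The 9 tested miRNAs inside it were all listed members, all 9 had a negative difference, and 6 of them fell. Summed over the miRNAs of the interval that come before the Mir379 gene in assembly order, the level was 152, 200 and 91.6 CPM on day 3, 59.3, 89.9 and 55.5 on day 7, and 30.5, 54.2 and 29.3 on day 14. From Mir379 onward the sums were 96.8, 126 and 51.0, then 37.8, 49.1 and 35.2, then 14.7, 24.4 and 14.4 CPM. Both ends of the locus thus showed the same order of days, with day 14 libraries below all day 3 libraries.

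The same locus was lower at the end in the other dose groups too. The 49 members summed to 262, 338 and 146 CPM on day 3, 100.1, 141 and 90.0 on day 7 and 44.5, 80.7 and 42.4 on day 14 at the middle dose. In vehicle rats the sums were 60.9, 167 and 94.8 CPM on day 3, 71.6, 154 and 162 on day 7, and 44.3 and 35.8 on day 14. At 10 mg/kg they were 181, 155 and 225 CPM on day 3 and 33.3, 83.8 and 77.3 on day 14, and at 100 mg/kg 221.6, 109 and 146 against 73.6, 33.2 and 48.5. Day 14 was below day 3 without overlap in each of the 4 dose groups, while the vehicle libraries of day 7, unlike those of the middle dose, lay as high as those of day 3.

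**Figure D3:**
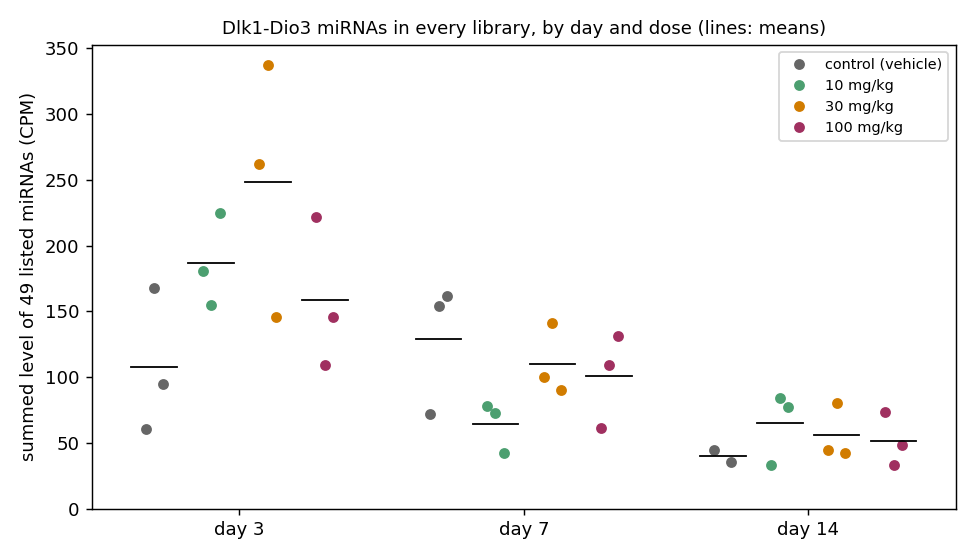
Summed level (CPM) of the 49 listed Dlk1-Dio3 miRNAs in each of the 35 libraries, by day and dose; points are libraries and lines are means. The 3 middle dose libraries of day 3, 146 to 338 CPM, include the highest of the series, and the day 14 libraries of all doses lie between 33.2 and 83.8 CPM.

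The difference between dose groups was tested directly. In vehicle rats all 10 tested members were negative from day 3 to day 14, with a median log2 fold change of -1.67 and none called. No miRNA of the 328 passed in that comparison (29 at an unadjusted p of 0.05, and 0 in DESeq2). From day 7 to day 14 in vehicle rats all 10 were again negative, with a median of -1.87, and 2 were called lower. There 13 of the 328 passed, 10 of them lower. At 100 mg/kg all 10 were negative from day 3 to day 14 with a median of -1.68 and none called, where 0.915% of the 328 passed (0.305% higher and 0.61% lower). DESeq2 called 22 of the 328 there and 21 at the middle dose. The time course of the middle dose differed from that of the vehicle for none of the 10 members (adjusted p of 0.399 to 0.797, edgeR) and from that of the high dose for none (0.924 to 0.985). For miR-411-5p the values from day 3 to day 14 were -2.58 ± 0.48 at the middle dose, -2.00 ± 0.58 in vehicle rats and -1.49 ± 0.50 at the high dose. miR-409a-5p gave -2.85 ± 0.60, -0.11 ± 0.95 and -3.08 ± 0.88 in the same order.

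The second group that fell was the miR-200 family. Of 8 members listed as epithelial markers, 7 were tested; 2 fell from day 3 to day 14 beside 2.74% of all tested, none rose, and all 7 differences were negative, with a median log2 fold change of -0.63 beside 0.04 over all tested. In bulk liver RNA, fewer epithelial cells and less of these miRNAs in each cell cannot be told apart. miR-200b-3p, the most abundant member, read 1357, 1455 and 846 CPM on day 3, 705, 945 and 816 on day 7, and 431, 542 and 738 on day 14. Day 14 lay below day 3 with no overlap, and the log2 fold change was -1.10 ± 0.23 (adjusted p = 0.00204, edgeR).

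miR-200a-5p, the lesser arm of its hairpin, stood at 17.1, 15.3 and 12.2 CPM on day 3, at 8.70, 5.06 and 11.2 on day 7, and at 4.26, 5.08 and 5.78 on day 14. It dropped to a range below every day 3 library (-1.53 ± 0.32, adjusted p = 0.00204, edgeR). Its partner arm miR-200a-3p missed the threshold at -0.63 ± 0.20 (adjusted p = 0.0714, edgeR), with day 3 at 147, 174 and 117 CPM and day 14 at 82.2, 85.4 and 115. The 4 others ran from -0.38 ± 0.28 for miR-429 to -0.65 ± 0.37 for miR-200c-3p and did not pass. miR-429 overlapped widely, with 111, 200 and 102 CPM on day 3 and 116, 59.7 and 142 on day 14.

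In vehicle rats the 7 family members were also all negative from day 3 to day 14, with a median of -0.47, and at 100 mg/kg with a median of -0.52; none was called in either. miR-200b-3p differed by -0.73 ± 0.26 in vehicle rats and by -0.70 ± 0.23 at 100 mg/kg. The time course of no member differed between the middle dose and the vehicle (adjusted p of at least 0.298, edgeR) or the high dose (at least 0.924). Sums of the red blood cell, endothelial and white blood cell markers overlapped between day 3 and day 14. That of the hepatocyte-abundant miRNAs did not, at 469930 to 534910 CPM on day 3 and 569380 to 660620 on day 14. In vehicle rats this sum did not overlap either, at 426100 to 463160 against 477580 to 514810 CPM. The same held at 100 mg/kg, at 472930 to 498610 against 564430 to 600630 CPM. At the lowest dose the days overlapped, at 455720 to 463640 against 455540 to 506080 CPM. The sum includes the hepatocyte-abundant miRNAs called higher at the middle dose, so it is not separate from those calls. The stellate and smooth muscle sum was 39147 to 48061 CPM on day 3, 49134 to 57339 on day 7 and 45926 to 57207 on day 14. Its days 3 and 7 thus did not overlap. The red blood cell markers went from 3380 to 5732 CPM on day 3 to 2174 to 4515 on day 14, with all 4 tested members negative and none called, and the endothelial markers from 21132 to 25146 to 20375 to 22787 CPM, with 1 of 2 tested members negative. The white blood cell markers stood at 2224 to 3020 CPM on day 3 and 2447 to 3187 on day 14. The part of cell composition in the falls was not tested.

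The 5 miRNAs that rose did so by far less. miR-22-3p and miR-192-5p are the most abundant miRNAs of these livers: their shares of all counts were 18.1% ± 0.57 and 15.3% ± 0.56 (SD, n = 3) on day 3 and 21.2% ± 1.81 and 17.4% ± 2.01 on day 14. miR-22-3p read 171152, 177696 and 193268 CPM on day 3, 180722, 188711 and 211941 on day 7, and 208308, 256741 and 265601 on day 14. The log2 fold change was 0.43 ± 0.10 (adjusted p = 0.0109, edgeR). miR-192-5p, a hepatocyte miRNA also linked to p53, read 148051, 139163 and 172190 CPM on day 3, 163644, 166572 and 166817 on day 7 and 183969, 234609 and 180479 on day 14 (0.38 ± 0.10, adjusted p = 0.0133, edgeR). For both, every day 14 library lay above every day 3 library.

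The other arm of each hairpin did not pass: miR-22-5p differed by 0.39 ± 0.22 (adjusted p = 0.497, edgeR) and miR-192-3p by 0.22 (adjusted p = 0.642, edgeR). Among the 14 tested hepatocyte-abundant miRNAs, these 2 rose, beside 1.52% of all tested, 13 differences were positive and the median was 0.22 against 0.04 over all tested. miR-194-5p, which is encoded beside miR-192, missed the threshold at 0.37 ± 0.12 (adjusted p = 0.0740, edgeR), and miR-122-5p was at 0.20 ± 0.14 (adjusted p = 0.632, edgeR). At 100 mg/kg the same 14 had a median of 0.25 with 1 call, and in vehicle rats 0.07 with none; miR-22-3p differed by 0.36 ± 0.10 and 0.17 ± 0.12 there, and miR-192-5p by 0.32 ± 0.10 and 0.19 ± 0.11.

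miR-29a-3p and miR-29c-3p, members of a family known to repress collagen genes in stellate cells, rose together. miR-29a-3p had 1339, 2700 and 1971 CPM on day 3, 1873, 2969 and 2878 on day 7, and 3322, 2461 and 4142 on day 14, with a log2 fold change of 0.72 ± 0.20 (adjusted p = 0.0276, edgeR). miR-29c-3p had 284, 485 and 385 CPM on day 3, 381, 516 and 547 on day 7 and 580, 471 and 823 on day 14 (0.70 ± 0.19, adjusted p = 0.0252, edgeR). In both, the second day 14 library lay inside the day 3 range, so the groups overlapped. miR-29b-3p, with the same seed, was at 26.6, 30.4 and 30.8 CPM on day 3 and 32.1, 34.1 and 47.5 on day 14, a difference of 0.38 ± 0.17 that did not pass (adjusted p = 0.317, edgeR). The 5p arms of the pair were at -0.03 and -0.27 and did not pass. In vehicle rats all 5 tested family members were positive, with a median of 0.40 and none called.

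miR-182, which is induced by the sterol regulator SREBP2, stood at 1166, 886 and 1635 CPM on day 3, 1908, 1376 and 1741 on day 7, and 1448, 2394 and 2215 on day 14. The day groups overlapped, and the difference from day 3 to day 14 was 0.72 ± 0.21 (adjusted p = 0.0434, edgeR). It was the sole member of the 5 sterol-linked miRNAs to pass, beside 1.52% higher over all tested; all 5 were positive, with a median of 0.50 against 0.04. Its hairpin neighbours miR-96-5p and miR-183-5p did not pass, nor did miR-33-3p, which lies in a sterol regulator gene, at 0.58 ± 0.21 (adjusted p = 0.131, edgeR). In vehicle rats it read 1312, 1641 and 1084 CPM on day 3, 644, 697 and 623 on day 7 and 952 and 921 on day 14, so that all later libraries lay below day 3. Its time course was the one of the 328 (0.305%) that differed between the middle dose and the vehicle (adjusted p = 0.0156, edgeR; DESeq2 called 3). Without replicate 1 of the vehicle's day 7 the count of 1 became 30. From day 3 to day 7 alone it was again the one that differed (0.305%, higher at the middle dose; 0% lower). Leaving out replicate 2 of the vehicle's day 3 lost both calls (adjusted p = 0.109 and 0.0559), and leaving out replicate 1 or 2 of the middle dose's day 3 lost the first (up to 0.114).

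Against the high dose the change from day 3 to day 14 differed for 3 miRNAs (0.915%, all higher at the middle dose; 0% lower), miR-331-3p and both arms of miR-582, and the whole time course for 1 (0.305%), miR-582-5p. miR-331-3p, which did not pass within the middle dose (0.75 ± 0.27, adjusted p = 0.131, edgeR), read 37.4, 76.4 and 43.9 CPM on day 3 and 81.9, 61.8 and 122 on day 14 there, and 124, 128 and 154 against 112, 46.4 and 71.6 CPM at 100 mg/kg. The days overlapped at the middle dose, and at the high dose all day 14 values lay below day 3 (-0.81 ± 0.27, adjusted p = 0.0781, edgeR). Without replicate 2 of the high dose's day 3 none of these calls against the high dose held.

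The calls of the 5 rises were lost more often than those of most falls. With library size alone in place of TMM, the median of all 328 moved from 0.04 to -0.17, none of the 5 passed and 12 miRNAs were called lower; the 5 stayed positive at 0.23 for miR-22-3p, 0.19 for miR-192-5p, 0.53 for miR-29a-3p, 0.50 for miR-29c-3p and 0.53 for miR-182. With DESeq2 size factors in place of TMM, all but miR-182 passed. Single libraries also decided them. miR-22-3p was no longer called without replicate 1 of day 3 or replicate 2 or 3 of day 14, miR-192-5p without replicate 2 of day 14, miR-29c-3p without replicate 1 or 3 of day 3 or 3 of day 14, miR-29a-3p without these or replicate 1 of day 14, and miR-182 without replicate 1 or 2 of day 3 or 2 or 3 of day 14. miR-182 lost its call in 10 of 16 alternatives, also with either other filter on low counts and with the first run alone. The falls of miR-411-5p, miR-434-3p, both miR-136 arms, miR-200a-5p and miR-200b-3p passed in each of 16 alternatives, and that of miR-409a-5p in each of 15.

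**Figure D4:**
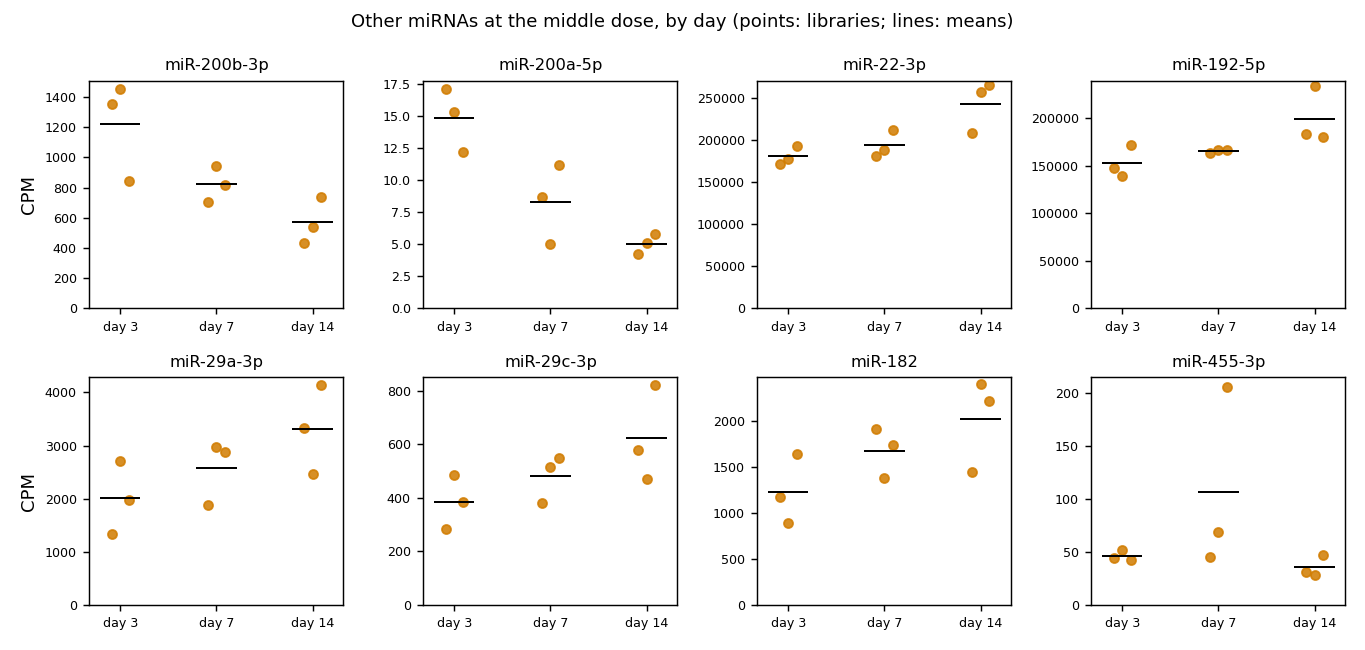
Levels (CPM) of the miR-200 family members that fell, the 5 miRNAs that rose and miR-455-3p in the 9 middle dose libraries by day; points are libraries and lines are day means. The day 14 points of miR-22-3p and miR-192-5p lie above all day 3 points, those of miR-29a-3p, miR-29c-3p and miR-182 overlap day 3, and 1 day 7 library of miR-455-3p stands apart at 206 CPM.

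miR-455-3p was the one miRNA whose day 7 level decided the test across days. It read 44.5, 51.7 and 42.2 CPM on day 3, 45.4, 68.6 and 206 on day 7, and 31.1, 27.9 and 47.1 on day 14 (adjusted p = 0.0157 over the 3 days, edgeR). Replicate 3 of day 7 was the source of the high mean: without it the adjusted p was 0.559. The pairwise differences did not pass, at 1.20 ± 0.37 from day 3 to day 7 (adjusted p = 0.448, edgeR) and -1.58 ± 0.37 from day 7 to day 14 (adjusted p = 0.0761, edgeR).

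Several miRNAs stood just outside the threshold for day 14 against day 3. Next after miR-182 came miR-184 at 3.74 ± 1.14 (adjusted p = 0.0691, edgeR), with 0.543, 0.547 and 3.72 CPM on day 3, 2.99, 9.03 and 3.38 on day 7 and 2.62, 27.6 and 28.4 on day 14. Its 2 high libraries were the 2 run 2 times, and the other day 14 library overlapped day 3. miR-30b-5p followed at 0.34 ± 0.11 (adjusted p = 0.0710, edgeR) and miR-582-3p at 1.48 ± 0.47 (adjusted p = 0.0710, edgeR). miR-582-3p had 29.8, 33.1 and 20.3 CPM on day 3 and 89.7, 108 and 36.3 on day 14, without overlap.

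Among 28 lists of related miRNAs and marker miRNAs, 5 held a call for day 14 against day 3: the Dlk1-Dio3, miR-200, hepatocyte-abundant, miR-29 and sterol-linked lists described above. A list of H19- and Igf2-linked imprinted miRNAs had no member high enough to test, and the other 22 had tested members and no call. The 9 tested let-7 members, which repress growth genes, were all positive from day 3 to day 7 (median 0.20) and had a median of 0.08 over the whole course; let-7f-5p led at 0.35 ± 0.11 on day 7 (adjusted p = 0.448, edgeR). All 7 miR-181 members were negative from day 3 to day 14 (median -0.21). Of 7 tested inflammation-linked miRNAs 6 were negative (median -0.22), among them miR-21-5p at -0.15 ± 0.18. miR-34a-5p, a p53 target, was at 0.04 ± 0.30 (adjusted p = 0.968, edgeR). The 7 tested stellate and smooth muscle markers had a median of 0.12, the 2 endothelial ones of 0.01 and the 7 white blood cell ones of 0.00.

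The miRNAs that stood farthest from the vehicle at this dose, like nearly all tested, had no call between days. A list of 16 such miRNAs was taken from an earlier result of these data and is therefore no independent evidence of its difference from control. It had no call in any pair of days. Over all 328, 0% passed from day 3 to day 7, 0% from day 7 to day 14 and 4.27% from day 3 to day 14. No call among 16 is thus near the share of all tested. The list had medians of 0.01 from day 3 to day 7, -0.07 from day 7 to day 14 and -0.06 from day 3 to day 14. In 15 of the 16 all 9 middle dose libraries lay outside the range of the 8 vehicle libraries, 11 above it and 4 below. The 16 had been picked for their difference from the vehicle. How many of all 328 miRNAs lie outside that range is not given here, so this count describes the list only. miR-22-5p ranged over 113 to 230 CPM across the 9 libraries and 4.68 to 19.4 in the vehicle ones, and miR-128-3p over 49.5 to 126 and 2.29 to 8.24. From day 3 to day 14 miR-128-3p differed by 0.29 ± 0.30 (adjusted p = 0.740, edgeR). On the lower side, miR-16-5p, which restrains the cell cycle, ranged over 5141 to 6967 CPM against 8742 to 19830, and miR-363-3p over 13.6 to 22.8 against 30.7 to 72.0.

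**Figure D5:**
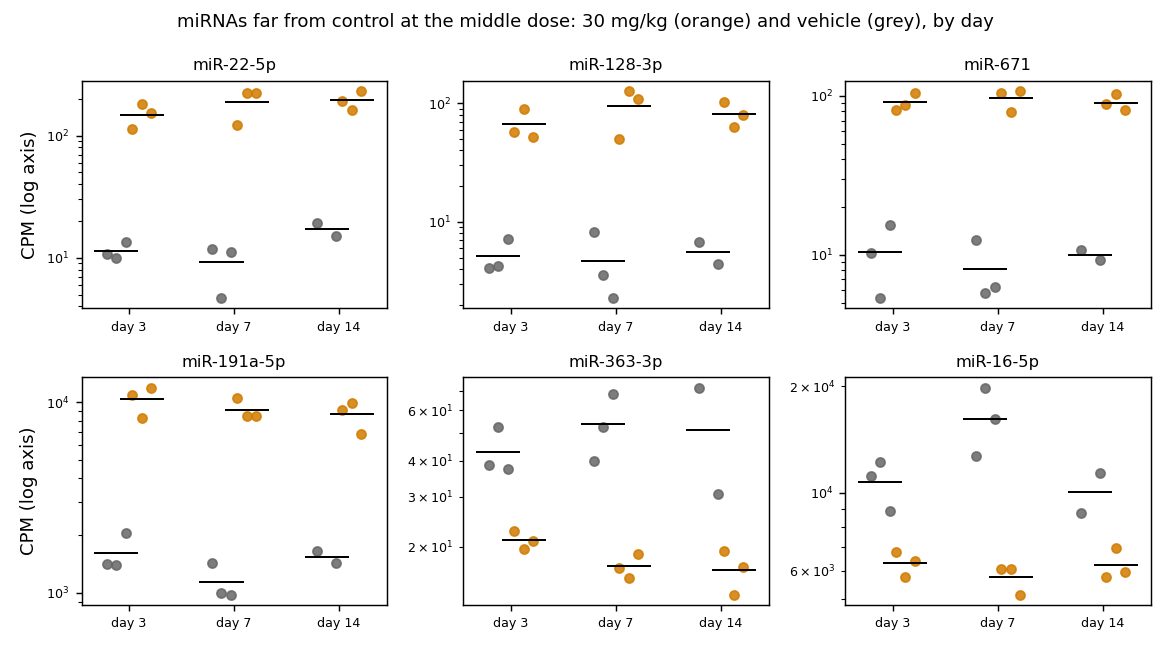
Levels (CPM, log axis) of 6 miRNAs in the 9 middle dose libraries (orange) and the 8 vehicle libraries (grey) by day; points are libraries and lines are day means. For each miRNA the orange points of all 3 days lie on 1 side of all grey points, as for miR-22-5p at 113 to 230 CPM against 4.68 to 19.4.

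The size of change the test could call was checked in simulated counts. In counts simulated from the same libraries, with 325 miRNAs, the test recovered 54.5% of miRNAs changed 1.5-fold between day 3 and day 14, 80.3% of those changed 2-fold and 98.5% of those changed 4-fold, and called 1 of 128 left unchanged. The 1.5-fold, 2-fold and 4-fold sets held 66, 66 and 65 miRNAs, a far larger changed share than the 4.27% called in the data. The Benjamini-Hochberg adjustment is more lenient when more miRNAs change, so these rates can overstate what was recoverable in the data. Where the simulated day 7 lay midway on the log scale, the test of day 7 against day 3 recovered 10.6%, 27.3% and 83.1% of the same sets. From day 3 to day 7 the simulated steps of the 1.5-fold and 2-fold sets were thus mostly missed, and those of the 4-fold set mostly called. Day 14 against day 7 was not scored. In the data the 10 tested Dlk1-Dio3 miRNAs had a median of -1.21 from day 3 to day 7, and none passed. The simulated rates are averages over miRNAs of all levels. They were not scored for miRNAs as low as these 10, so they do not give the rate for them.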

How the data were processed

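Small RNA libraries of rat liver were made from total RNA with RNeasy Plus Universal Mini and Illumina TruSeq Small RNA kits, per the labels' protocols. The authors deposited a table of raw read counts per miRNA, mapped to rn6 per the submitters' processing notes; which aligner, counter and miRNA annotation were used is not given in the sources used here. No molecular identifiers are named, so counts carry amplification and counting error.

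The run columns of repeat-sequenced samples were summed. edgeR 4.0.16 (R 4.3.3) was run on all 35 libraries in 12 groups (23 residual degrees of freedom), with TMM scaling (factors of 0.835 to 1.05 in the middle dose), filterByExpr by group (minimum count 10, minimum total 15) and robust quasi-likelihood F-tests, adjusted over 328 miRNAs at a threshold of 0.05. CPM are TMM-normalised. A test of day effects against those of vehicle and high dose used the interaction contrasts. DESeq2 1.42.0, other scalings, filters, runs, depths and left-out libraries were alternatives. The model was tested on simulated data. Replicate libraries of a day differed by 34.8 to 600 in chi-square per degree of freedom, against 8.09 and 5.74 between runs of a sample, so none was a repeat deposit.

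Members and lists were chosen with earlier results of these data known. Named miRNAs were those past the threshold with at least 10 CPM and no overlap, the smallest p-values where none passed, the leading members of each list, the most abundant and a few fixed ones. miR-136-5p, miR-409a-5p, miR-541-5p, miR-376b-3p, miR-127-3p, miR-300-3p, miR-431, miR-200a-5p, miR-200c-3p, miR-184 and miR-582 were named after their values were seen, or as members of a list. Mature sequences came from RefSeq (GRCr8), which held 292 of the 328. Authors' coordinates were not used.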

Additional observations from a re-analysis of the deposited data

Results flagged for a closer look

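A few miRNAs changed between days differently at the middle dose than in another group, by an interaction test in edgeR adjusted over 328 miRNAs. For miR-182 the change from day 3 to day 7 was 1.49 ± 0.30 higher (log2) at the middle dose than in vehicle rats (adjusted p = 0.00744), and its F over the 3 days was 13.96 (adjusted p = 0.0156). The first call was lost without vehicle day 3 replicate 2 (adjusted p = 0.0559), and the second without that library or without replicate 1 or replicate 2 of the middle dose on day 3 (up to 0.114). In vehicle rats the change itself was -1.04 ± 0.21 (adjusted p = 0.00945).

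Against the high dose, 3 miRNAs (0.915%) differed from day 3 to day 14. The difference was 1.56 ± 0.38 for miR-331-3p (adjusted p = 0.0283), 2.99 ± 0.66 for miR-582-3p (adjusted p = 0.0190) and 3.06 ± 0.61 for miR-582-5p (adjusted p = 0.00658); miR-582-5p also had an F of 12.71 over the 3 days (adjusted p = 0.0304). miR-582-5p had 2.17, 6.29 and 4.73 CPM on day 3 and 11.5, 13.0 and 6.76 on day 14 at the middle dose, and 5.44, 18.9 and 10.3 against 2.26, 3.32 and 4.45 at 100 mg/kg. It thus went up in one dose group (1.23, not past the threshold) and down in the other (-1.83 ± 0.45, adjusted p = 0.0318). Without high dose day 3 replicate 2, the library with the highest value, the adjusted p was 0.0537. Calls for miR-582-3p were lost without 3 of 18 libraries, for miR-331-3p without 7 and for the F of miR-582-5p without 7.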

How the results depend on the processing

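For day 14 against day 3 the 14 calls became 7 in a fit of the groups compared alone, with fewer libraries to estimate the spread; over the 3 days the 10 calls became 6 there and 16 in DESeq2. Day 14 against day 7 went from 0 to 1 with DESeq2 size factors, library size alone, a filter of at least 10 CPM in at least 3 libraries and DESeq2. The time course against vehicle went from 1 call to 3 in DESeq2, 0 in the groups compared alone and 3 with the replicate block; against the high dose it went from 1 to 0 without a low-count filter, to 2 with the 10 CPM filter, to 3 in DESeq2, and to 0 in the groups compared alone, with the replicate block and with the first run alone. The cause of these changes was not tested. Leaving out 1 library gave 8 (without day 3 replicate 1) to 18 (without day 3 replicate 2) calls for day 14 against day 3, 5 (without day 3 replicate 1) to 15 (without day 14 replicate 1) over the 3 days, 0 to 1 for each pair of neighbouring days, 0 to 30 against vehicle (30 without vehicle day 7 replicate 1) and 0 to 3 against the high dose. Thinning to 2665943 counts gave 17 calls, 9 higher and 8 lower, library size alone 0 higher and 12 lower, against 5 and 9. Same-numbered libraries correlated by -0.332 to 0.266 (2 of 9 over 0.1, and 1 of 9 libraries was closest to its own number). They showed no steady likeness by number and were treated as unpaired. So few values cannot settle whether libraries of 1 number were handled together. The replicate block gave 14 calls for day 14 against day 3. Over single named miRNAs, alternatives to called values kept the call in 218 cases and lost it in 57, none with the other sign; of alternatives to uncalled values 1778 stayed uncalled and 46 gained a call, and 99 had the other sign.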
